A study of Mus musculus with 4 samples.

Results

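Ischemic core tissue of the mouse brain was set against ischemic penumbra tissue, with the 4 channels that carried ischemic RNA on 4 two-colour arrays, of 8 channels in all. Permanent occlusion of the middle cerebral artery cuts off flow to the part of the brain that this artery feeds. In the core, flow is lost most deeply and cells die first; the penumbra around it keeps partial flow, and its cells can survive longer. Both are zones of one injury, and both lie across areas with their own cell types, so the mRNA of a core piece and of a penumbra piece can differ in regional genes as well as in injury genes.

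The core group held core replicates 1 and 2, and the penumbra group held penumbra replicates 3 and 4. All were from male C57BL/6J mice bought at 9 weeks of age. The artery was closed for good with an intraluminal filament, saline was injected into a ventricle right after, and tissue was taken 6 h later, per the labels. The study's design text gives 3 mice per group, with neurological grades G1 and G2. It says that the pieces were cut out with a scalpel, and it gives neither the borders of the cuts nor whether the mice of a group were pooled. Core replicate 1 and penumbra replicate 3 carried their ischemic RNA in the red dye Cy5; core replicate 2 and penumbra replicate 4 carried it in the green dye Cy3. The other dye of each array carried the corresponding healthy tissue, labelled healthy core or healthy penumbra, and the labels do not say whether that came from the opposite hemisphere or from other mice.

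Each difference below is log2 intensity in core minus log2 intensity in penumbra, taken within a dye and averaged over the 2 dyes, and each error is the SD between the 2 dyes, which are also 2 separate pairs of arrays. Whether a region's arrays held different extracts is not given by any label, so each region counts as 1 replicate and no difference was tested. A feature (a gene, or a transcript with no symbol) was called where the mean difference was at least 2-fold and each dye gave at least 1.5-fold in the same direction. From 76.1% to 79.4% of a channel's 43379 spots lay well above background, and 0 were saturated. Neuronal and glial genes were bright in every ischemic channel (Camk2a from 15.43 to 16.09, Mbp from 16.18 to 17.05). No gene marks core or penumbra as such, so those labels could not be checked against markers. The 10 spike-in transcripts had median differences of 0.08 in Cy3 and -0.43 in Cy5 in the ischemic channels after normalization.

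Of 24881 features measured, 338 were called (1.36%). Ischemic core was higher in 110 (0.442%) and lower in 228 (0.916%). Scaled to the spike-in transcripts instead, 181 were higher and 189 lower, so the share of higher calls went from 32.5% to 48.9%. Without core replicate 1 or penumbra replicate 3, which leaves Cy3 alone, 543 features passed, 408 of them lower. With Agilent's processed signals 415 were higher and 624 lower, and with no offset in the background correction 219 and 414. Most of the transcriptome lay close to 0, with 91.7% of features within 0.5 log2 and 98.6% within 1 log2. The lower calls reached further: 36 were at least 4-fold and 13 at least 8-fold lower, against 3 and 0 among the higher calls. The median SD between dyes was 0.08 over all features and 0.09 over the called ones. The 2 same-dye differences correlated at r = 0.74 across features, which are not independent replicates, and 0 features would pass the same rule with the sign of 1 dye turned. Another 17 features passed 2-fold in the mean and were not called, because 1 dye fell short.

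**Figure D1:**
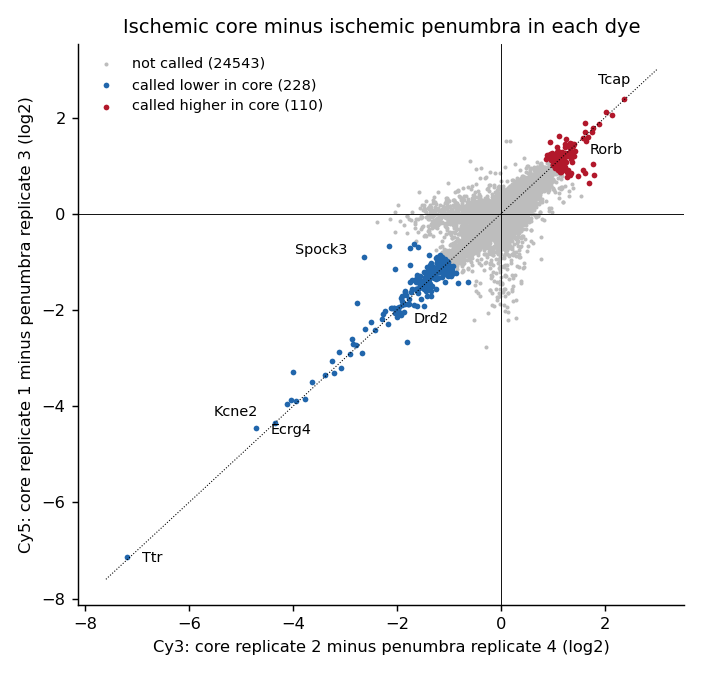
Ischemic core minus ischemic penumbra (log2) in Cy3 (x axis) against Cy5 (y axis), 1 point per feature; blue points are the 228 called lower, red points the 110 called higher, and the dotted line marks equal values. The called features lie near the dotted line, with Ttr, at -7.16 in the mean, far below all others, and Spock3 as an example of a gene whose 2 same-dye differences were unequal.

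The genes furthest apart were those of the choroid plexus, the epithelium that makes cerebrospinal fluid inside the ventricles. Of 22 measured markers of this tissue, 16 were lower in core and 0 higher, beside 0.916% and 0.442% of all features. The list median was -3.15, against a median of 0.02 over all features. Ttr, which encodes the thyroid hormone carrier transthyretin, stood at log2 6.35 in core replicate 1 and 6.35 in core replicate 2. In penumbra replicates 3 and 4 it stood at 13.47 and 13.54. That is a difference of -7.16 ± 0.04. The core signal was well above background on only 1 of the 2 arrays, and the size depends on the processing, with -9.88 from Agilent's processed signals.

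Ecrg4, a secreted peptide precursor of choroid plexus epithelium, had 8.04 and 7.99 in core and 12.51 and 12.70 in penumbra (-4.59 ± 0.18). The potassium channel subunit Kcne2 had 6.57 and 6.79 in core and 10.93 and 11.14 in penumbra (-4.35 ± 0.01). Clic6, an intracellular chloride channel family member, had 9.17 and 9.15 in core and 13.11 and 13.28 in penumbra (-4.04 ± 0.12, with -2.74 in its other probe). The core and penumbra arrays lay far apart in each of these genes, which were named for the size of that difference. Folr1, the folate receptor that moves folate into cerebrospinal fluid, differed by -3.92 ± 0.04, and its dimmer probe by -1.52.

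Most other markers on the list went the same way. The keratin Krt18 differed by -3.95 ± 0.12, and Kl, which encodes the FGF co-receptor klotho, by -3.81 ± 0.05. The water channel Aqp1 differed by -3.16 ± 0.12, and the BMP and Wnt antagonist Sostdc1 by -3.14 ± 0.10. Wfdc2 differed by -3.57 ± 0.11 and Steap1 by -3.37 ± 0.03 (-2.36 in its other probe). Calml4 differed by -3.27 ± 0.07, with core well above background on 1 array only, and by -5.79 with Agilent's processed signals. Enpp2, the lysophospholipase D autotaxin, which other brain cells also express, was bright in both regions, at 14.40 and 14.36 in core and 15.85 and 15.73 in penumbra (-1.41 ± 0.06). Some genes were not well above background in core on either array, so that their folds are lower bounds. The tight junction gene Cldn2 was at least 7.52-fold lower in core, the homeobox gene Otx2 at least 3.93-fold and Tmem72 at least 2.23-fold. Outside the list, the sulfotransferase Sult1c2 was at least 4.11-fold lower, the coagulation factor gene F5 at least 2.87-fold and the kinase gene Nek5 at least 2.75-fold. The markers not called were Abca4 (-0.92), Prlr (-0.90), Ace (-0.72), Msx1 (-0.45), Igfbp2 (0.01) and Krt8 (0.35). Several of these are also made by other cells, and whether that bears on their values was not tested.

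The mean log2 level over the 22 choroid plexus markers was 7.88 and 7.90 in the core channels, and 10.55 in each of the penumbra channels. The same list had a median of -2.51 between healthy core and healthy penumbra. Of the 22, 15 were called lower there, beside 204 of all 24881 features. In bulk tissue, fewer cells of a type and less RNA per cell cannot be told apart. Htr2c, a serotonin receptor abundant in choroid plexus, differed by -1.61 ± 0.00, against -1.21 ± 0.01 in healthy tissue, and its other probe by -0.69, under the 2-fold line.

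Ependyma, the ciliated lining of the ventricles, followed to a smaller degree. Of 12 measured ependymal and motile cilia genes, 6 were lower and 1 higher, beside 0.916% and 0.442% of all features. Their median was -0.91. Dynlrb2, a dynein light chain, differed by -1.59 ± 0.03, Dnali1, an axonemal dynein component, by -1.44 ± 0.02, and Foxj1, the transcription factor of motile ciliogenesis, by -1.07 ± 0.11. Mia differed by -1.53 ± 0.16 and Rarres2, the precursor of chemerin, by -1.14 ± 0.10, a call that ended under spike-in scaling. Spag6, an axonemal protein gene, was the 1 member higher in core, at 1.07 ± 0.03. The list median was -0.44 in healthy tissue.

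**Figure D2:**
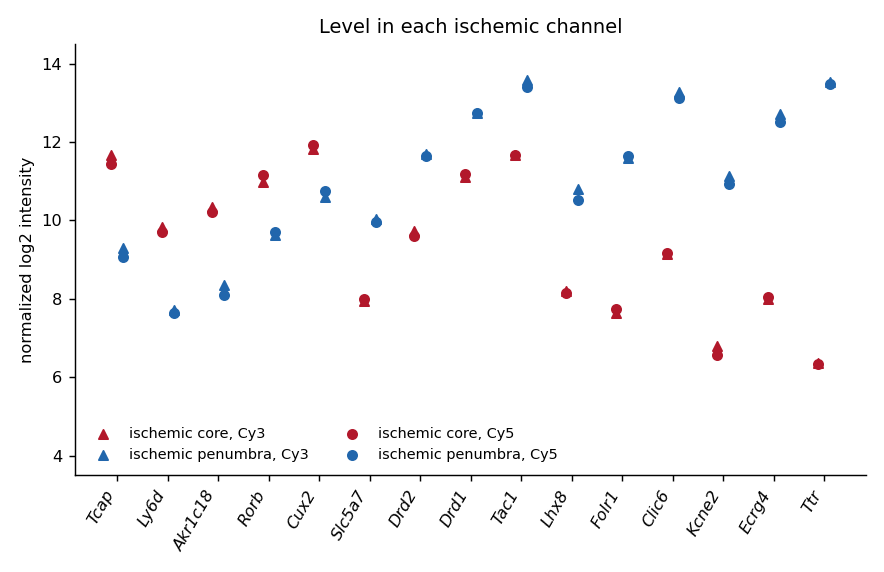
Normalized log2 intensity of 15 genes in the 4 ischemic channels, core in red and penumbra in blue, Cy3 as triangles and Cy5 as circles. Within each region the 2 dyes lie close together. All 15 genes were picked from the called ones, so the gap between core and penumbra is largely set by that choice. For Ttr the channels stand at 6.35 and 6.35 in core against 13.47 and 13.54 in penumbra.

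Genes of the striatum, the deep forebrain nucleus of dopamine-responsive projection neurons, were lower in ischemic core as well. Of 19 measured markers of striatal projection neurons, 13 were lower and 0 higher, beside 0.916% and 0.442% of all features. Their median was -1.40. Drd2, the dopamine receptor of the indirect pathway, had 9.61 and 9.74 in core against 11.65 and 11.70 in penumbra (-2.00 ± 0.05). Drd1, the receptor of the direct pathway, had 11.19 and 11.12 against 12.75 and 12.75 (-1.59 ± 0.05). A called marker of each pathway thus stood lower in core.

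Tac1, the substance P precursor, had 11.68 and 11.67 in core against 13.40 and 13.58 in penumbra (-1.81 ± 0.13). Nts, the neurotensin precursor, is on the neuropeptide list and not on the striatal one. It had 10.75 and 10.87 against 12.65 and 12.77 (-1.90 ± 0.01). Its healthy means were 8.80 in core and 11.15 in penumbra (-2.34 ± 0.05), so each ischemic region lay above its healthy counterpart. Rgs9, a GTPase-activating protein of dopamine signalling, differed by -1.96 ± 0.13, and Ido1, which encodes an enzyme of tryptophan breakdown, by -1.84 ± 0.12. The signalling genes Ppp1r1b (-1.52 ± 0.12), Pde10a (-1.42 ± 0.12) and Adcy5 (-1.40 ± 0.01) were called lower too. Penk, the enkephalin precursor, missed the rule at -0.94 ± 0.64, with core and penumbra close in Cy3 (16.20 and 16.69), and Adora2a, the adenosine receptor of the indirect pathway, was at -0.03 ± 0.28. The striatal list had a mean level of 11.37 in each core channel, and of 12.58 and 12.74 in the penumbra channels. In healthy tissue its median was -1.75 and 16 of 19 were lower, beside 204 of all 24881 features. The ischemic pieces thus lay closer together in these genes than the healthy ones.

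Of 5 genes of forebrain cholinergic neurons, 3 were called lower, beside 0.916% of all features. All 5 were below 0 in both dyes, beside 8042 of all 24881 features. Lhx8, the LIM homeobox gene that specifies these neurons, had 8.14 and 8.19 in core and 10.53 and 10.81 in penumbra (-2.50 ± 0.15, with -1.49 in its other probe). Slc5a7, the choline transporter, had 8.00 and 7.94 against 9.95 and 10.03 (-2.02 ± 0.10), and the homeobox gene Isl1 differed by -1.75 ± 0.09. Chat and Slc18a3, the acetylcholine-synthesizing enzyme and the vesicular transporter, were dim in all 4 channels, between 6.29 and 6.97, and were not called. Of 29 regional transcription factors, 6 were lower and 0 higher (median -0.33), beside 0.916% and 0.442% of all features. Besides Otx2 and Isl1 these were Six3 (-1.25 ± 0.24) and Meis2 (-1.11 ± 0.04), which act in striatal development, Nkx2-1 (-1.13 ± 0.02) of the ventral forebrain, and Zic1 (-1.12 ± 0.10), whose call ended under spike-in scaling.

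Genes of the upper cortical layers stood on the other side. Of 11 measured, 4 were higher in core and 0 lower, beside 0.442% and 0.916% of all features. Their median was 0.91. Rorb, the nuclear receptor that marks layer IV, had 11.16 and 10.99 in core and 9.70 and 9.63 in penumbra (1.41 ± 0.07). Cux2, a homeobox gene of the upper layers, had 11.93 and 11.81 against 10.74 and 10.58 (1.21 ± 0.02). Rspo1, a Wnt pathway enhancer, differed by 1.41 ± 0.05 and the sodium channel subunit Scnn1a by 1.32 ± 0.04. Lamp5 and Whrn lay just under the 2-fold line, at 0.91 and 0.92.

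Forebrain excitatory neuron genes had a median of 0.61. The transcription factor gene Bhlhe22 was the 1 of 11 called (1.20 ± 0.03), while the vesicular glutamate transporter Slc17a7 was at 0.61 ± 0.13. Deep cortical layer genes split, with Nr4a2 higher (1.04 ± 0.16) and Tshz2 (-1.15 ± 0.07) and Crym (-1.07 ± 0.04) lower. Crym was not called with median centring or spike-in scaling, Tshz2 not with spike-in scaling, and Nr4a2 not with Cy5 alone. None of the 15 inhibitory interneuron genes was called, beside 1.36% of all features. Gad1, a GABA-synthesizing enzyme, was at 0.02 ± 0.07, and Pvalb, the calcium buffer of fast-spiking interneurons, at 0.63 ± 0.10.

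**Figure D3:**
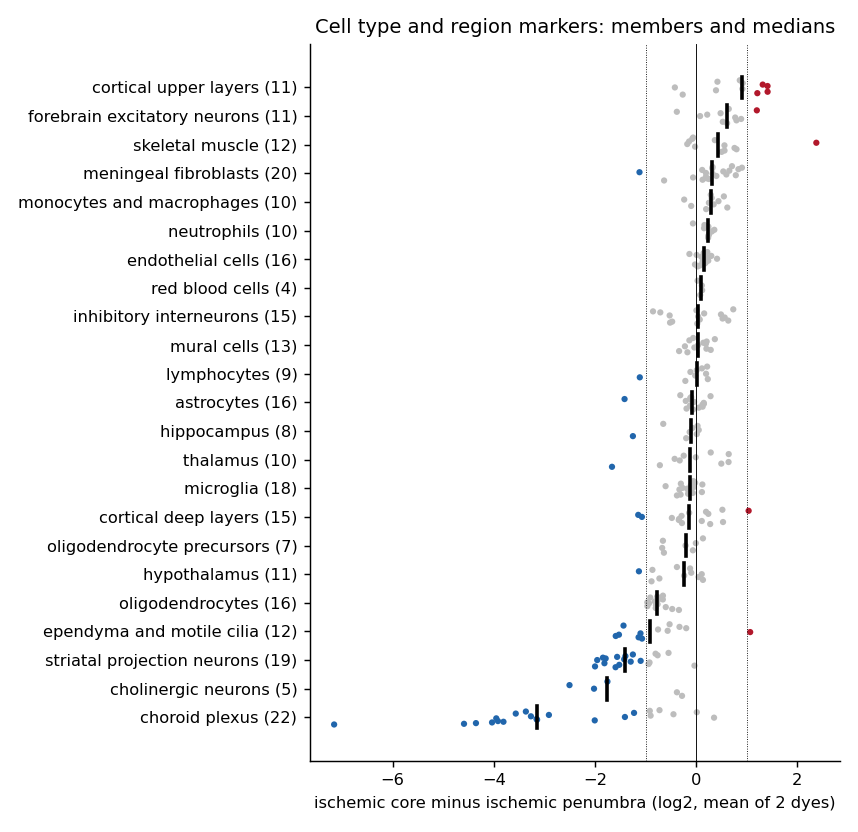
Ischemic core minus ischemic penumbra (log2, mean of 2 dyes) for the measured members of 23 cell type and region lists, with the number measured in brackets; black bars are list medians, blue and red points are genes called lower and higher, grey points were not called, and dotted lines mark 2-fold. Choroid plexus (median -3.15), cholinergic (-1.75) and striatal (-1.40) genes lie furthest to the left, and upper cortical layer genes (0.91) furthest to the right.

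Over the 23 cell type and region lists, 46 of 289 distinct genes were lower and 8 higher, beside 0.916% and 0.442% of all features. Oligodendrocyte genes were a case of small and even differences. None of 16 was called, yet all 16 were below 0 in both dyes (median -0.77), beside 8042 of all 24881 features. The 16 ran from Opalin at -0.97 ± 0.03 to the myelin basic protein gene Mbp at -0.34 ± 0.27. In healthy tissue their median was -0.79. Astrocyte, microglia, endothelial and mural cell genes had medians of -0.08, -0.13, 0.16 and 0.04, and the only 1 called among these 4 lists was Agt, the angiotensinogen gene, lower at -1.42 ± 0.07. The signs of the astrocyte and microglia medians turned with spike-in scaling. The 4 red blood cell genes lay between 0.03 and 0.12.

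Among single genes, the largest difference toward core was that of Tcap, a sarcomere protein of striated muscle. It had 11.45 and 11.66 in core and 9.06 and 9.30 in penumbra (2.38 ± 0.02, 5.19-fold). Of the 12 measured skeletal muscle genes it alone was called, beside 1.36% of all features. Their median was 0.44, with 7 above 0 in both dyes, beside 10300 of all 24881 features. The muscle genes ran from the fast troponin gene Tnni2 at -0.18 ± 0.02, through the skeletal actin gene Acta1 at 0.50 ± 0.04, to Tcap. Off the list, genes known from muscle were called in both directions. The slow troponin gene Tnnc1 was higher at 1.04. Actn2 (-1.51), Nexn (-1.74), Trim54 (-1.51) and Cox8b (-2.13) were lower. Ly6d, a lymphocyte antigen family gene, had 9.69 and 9.83 against 7.63 and 7.70 (2.09 ± 0.05). Akr1c18, a progesterone-metabolizing aldo-keto reductase, had 10.22 and 10.35 against 8.10 and 8.34 (2.06 ± 0.07).

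Next came Tspan11, a tetraspanin (1.87 ± 0.02, with 0.94 in its dimmer probe), Cyp39a1, an oxysterol hydroxylase (1.66 ± 0.06), and Kcnab3, a voltage-gated potassium channel subunit (1.63 ± 0.06). Il12a, a subunit of interleukin-12 and interleukin-35, had 9.07 and 9.13 in core and 7.49 and 7.56 in penumbra (1.58 ± 0.01), and differed by 1.20 ± 0.09 in healthy tissue. Cpne9 (1.58 ± 0.09), Pla2g4e (1.43 ± 0.04) and Cbln4, a synaptic organizer (1.40 ± 0.22), were also among the 12 highest. Wfdc15a, not above background in penumbra, was at least 2.18-fold higher in core, a call that ended under spike-in scaling.

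The 6 called genes with a symbol whose 2 same-dye differences lay furthest apart had a gap between arrays of 1 region. Spock3, a proteoglycan gene, differed by -1.77 ± 1.22. Core replicate 1 read 12.27 in its ischemic and 12.24 in its healthy channel, and core replicate 2 read 10.58 and 10.56, so the gap lay between the core arrays and not between the dyes. Rps6ka5 (-1.41 ± 1.05), Dach1 (-2.32 ± 0.64, with -1.18 in its other probe), Evi2a (-1.22 ± 0.73), Prelp (-1.15 ± 0.75) and Spatc1 (1.16 ± 0.75, with the gap between the penumbra arrays) were the others. Of these only Dach1 kept its call in each dye alone.

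Which of these differences healthy tissue also shows was the next comparison. It used the healthy channels of the same 4 arrays, so it shares arrays and spots with the ischemic one. In healthy tissue 282 features were called (1.13%). Of the 110 higher in ischemic core, 54 (49.1%) were called higher in healthy core, which is 69.2% of the 78 healthy calls in that direction. Of the 228 lower, 156 (68.4%) were called lower in healthy core, which is 76.5% of 204. The healthy difference lay on the same side of 0 in both dyes for 109 of 110 and 228 of 228. Over all 24881 features, 10239 healthy differences were above 0 in both dyes and 7948 below. Medians were 1.16 in ischemic and 1.00 in healthy tissue for the higher features, and -1.35 and -1.21 for the lower ones. A healthy difference of under 0.5 log2 in the same direction was found for 2 higher (Hspb1 and Sowahb) and 12 lower features. The ischemic difference exceeded the healthy one by 1 log2 or more in 1 higher feature (Hspb1) and 3 lower ones (Prkcd and 2 transcripts with no symbol).

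**Figure D4:**
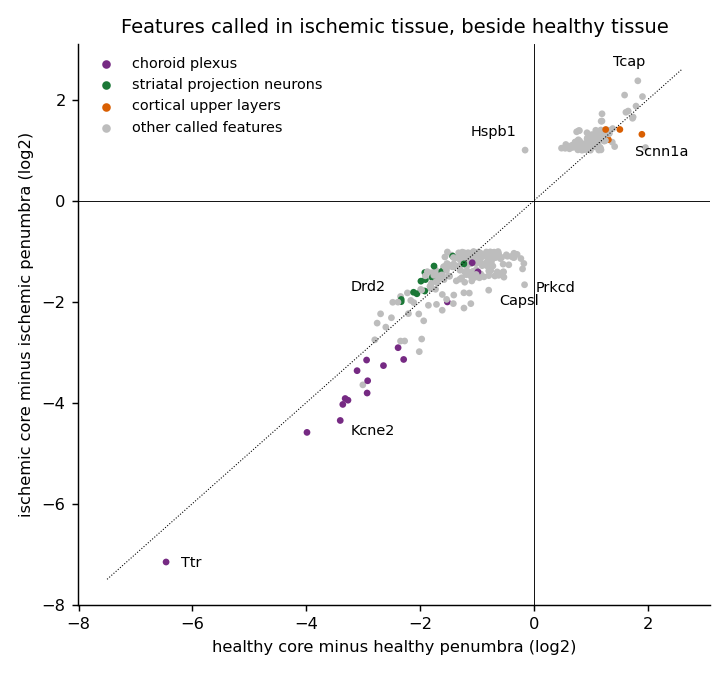
Core minus penumbra (log2, mean of 2 dyes) in healthy tissue (x axis) against ischemic tissue (y axis) for the 338 features called in ischemic tissue, coloured by 3 gene lists; the dotted line marks equal differences. Choroid plexus genes lie below the dotted line and most striatal genes above it, and Hspb1 (-0.15 healthy, 1.00 ischemic) and Prkcd (-0.16 healthy, -1.66 ischemic) stand away from the rest.

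Hspb1, a small heat shock protein that binds unfolding proteins and actin, was the 1 higher feature with no healthy difference in its direction. It had 13.79 and 13.80 in ischemic core and 12.83 and 12.75 in ischemic penumbra (1.00 ± 0.06). Its healthy levels were 11.75 and 11.91 in core and 11.89 and 12.08 in penumbra (-0.15 ± 0.03). Both ischemic tissues thus lay above both healthy ones, and ischemic core was the highest of the 4. The call sits on the 2-fold line: the mean ran from 0.96 to 1.19 over the processing alternatives, and the call ended with Cy5 alone.

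Heat shock factors bind inverted repeats of the letters GAA, and the stretches upstream of Hspb1 and of the stress-induced Hspa1a are shown for that reason. These are the 250 bases before the RefSeq start of each gene, in build GRCm38.p6, read in the direction of transcription, with each match to GAANNTTC in capitals. The motif reads the same on both strands. Hspb1 lies on the plus strand (chr5:135887669-135887918) and Hspa1a on the minus strand (chr17:34972157-34972406).
Hspb1: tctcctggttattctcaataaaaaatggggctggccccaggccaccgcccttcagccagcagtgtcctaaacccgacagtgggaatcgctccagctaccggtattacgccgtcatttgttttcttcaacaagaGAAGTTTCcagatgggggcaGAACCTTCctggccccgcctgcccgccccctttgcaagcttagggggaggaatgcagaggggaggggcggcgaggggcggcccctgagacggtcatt
Hspa1a: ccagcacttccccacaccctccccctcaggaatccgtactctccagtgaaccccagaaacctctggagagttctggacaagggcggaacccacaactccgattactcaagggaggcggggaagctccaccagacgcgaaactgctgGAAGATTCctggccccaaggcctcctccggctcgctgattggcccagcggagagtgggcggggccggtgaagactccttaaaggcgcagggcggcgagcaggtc
The Hspb1 stretch holds 2 matches, which begin 117 and 97 bases before the start, and the Hspa1a stretch holds 1, at 104. The motif was found in 7.9% of 32851 RefSeq promoter windows. It was in 11 of 20 windows of heat shock genes, 5 of 28 of choroid plexus genes and 2 of 22 of striatal genes. Counted by gene, which can have several windows, these were 10 of 14, 4 of 19 and 2 of 15. The counts cover whole windows, with their transcribed part, and not only the 250 bases shown. A match is a description of the letters and was not tested as a binding site.

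The other heat shock genes stayed under the 2-fold line between the ischemic pieces, with Hspa1a and Hspa1b leaning toward core. Of 18 measured, Hspb1 alone was called, beside 1.36% of all features, and the median was 0.06. Hspa1a, the inducible member of the HSP70 family, was among the brightest genes, at 16.94 and 17.28 in ischemic core and 16.41 and 16.62 in ischemic penumbra (0.60 ± 0.09). Hspa1b, nearly identical to it in sequence and so not cleanly separated, was at 0.84 ± 0.03. The HSP90 genes Hsp90aa1 and Hsp90ab1 were at -0.09 ± 0.10 and -0.16 ± 0.18, and the co-chaperone Dnajb1 at -0.04 ± 0.13.

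Prkcd, a protein kinase C isoform strongly expressed in thalamus, differed most in the other direction. It had 9.91 and 10.10 in ischemic core and 11.70 and 11.65 in ischemic penumbra (-1.66 ± 0.17). In healthy tissue it had 10.21 and 10.39 in core and 10.41 and 10.52 in penumbra (-0.16 ± 0.05). Ischemic penumbra was thus the highest of the 4 tissues. Of the 10 measured thalamic genes it alone was called, beside 1.36% of all features. Tcf7l2 was at -0.72 ± 0.07 and the glutamate transporter Slc17a6 at 0.64 ± 0.04. Among the lower genes that exceeded their healthy difference most were also Trim54 (-1.51 ± 0.20, healthy -0.53), Capsl (-1.77 ± 0.01, healthy -0.79), Slc2a12 (-2.04 ± 0.12, healthy -1.11), Tshz2 (healthy -0.23), Cox8b (-2.13 ± 0.15, healthy -1.23) and Agt (healthy -0.54). On the higher side, after Hspb1, they included Pparg, the adipogenic nuclear receptor (1.37 ± 0.07, healthy 0.75), Zfp459 (1.39 ± 0.09, healthy 0.79), Ccn4 (1.11 ± 0.03, healthy 0.56), Satb1 (1.08 ± 0.02, healthy 0.59), C1ra (1.08 ± 0.18, healthy 0.56) and Sowahb (1.04 ± 0.11, healthy 0.49). C1ra and Sowahb were not called with Cy3 alone.

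Meningeal fibroblast genes showed the reverse, a larger difference in healthy than in ischemic pieces. Of 20 measured, 5 were higher in healthy core (median 0.80), beside 78 of all 24881 features. In ischemic tissue 0 were higher and 1 was lower (Zic1, also on this list), beside 0.442% and 0.916% of all features. The ischemic median was 0.32. Col3a1, a fibrillar collagen gene, had 9.46 and 9.57 in healthy core and 8.29 and 8.35 in healthy penumbra. In ischemic tissue it had 8.92 and 8.90 in core and 8.60 and 8.57 in penumbra (0.32 ± 0.01). The difference between the ischemic and the healthy contrast was not tested for any gene or list.

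The injury-response genes were called about as seldom as features in general. Over 17 lists with 278 distinct genes, 2 were higher in core (Hspb1 and Il12a) and 0 lower, beside 0.442% and 0.916% of all features. None of 25 immediate early genes, which are transcribed within minutes of a stimulus, was called, and their median was 0.02. Fos, a subunit of AP-1, had 13.73 and 13.66 in core and 13.74 and 13.47 in penumbra (0.09 ± 0.14). Npas4, a transcription factor induced by neuronal activity, had 11.90 and 12.10 against 11.40 and 11.59 (0.50 ± 0.01). Ier2 was the member furthest from 0, at 0.83 ± 0.02. Hypoxia-regulated genes (23 measured, median 0.03), genes of the unfolded protein response (21, median 0.11), p53 targets (19, median -0.03) and antioxidant genes (18, median -0.07) had no call either. The sign of the immediate early, p53 and antioxidant medians turned with the processing.

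**Figure D5:**
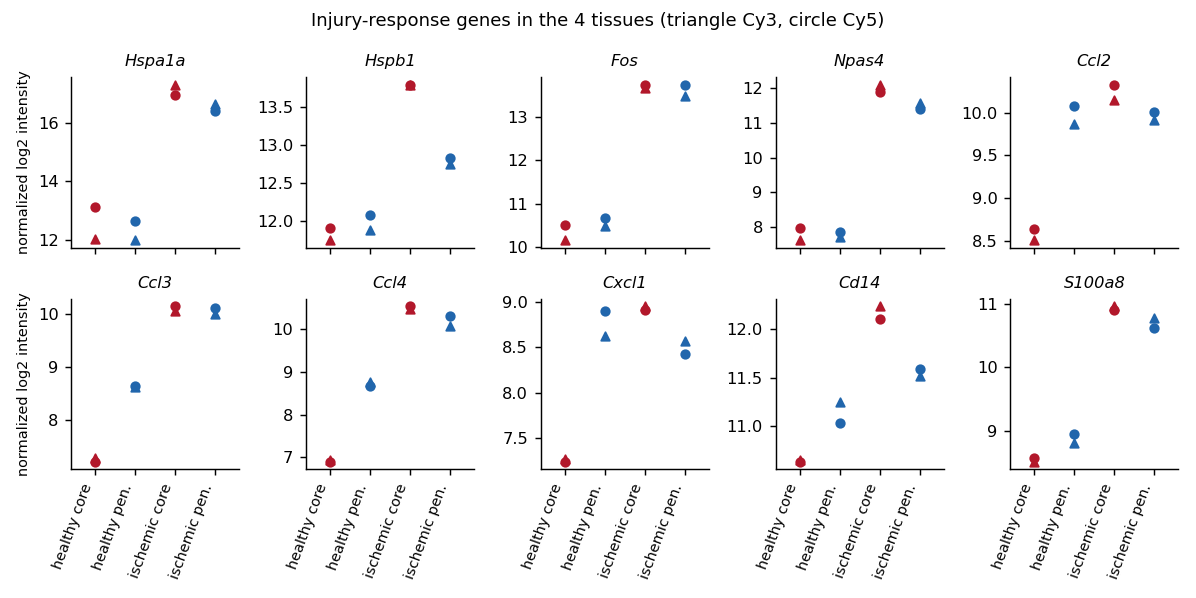
Normalized log2 intensity of 10 injury-response genes in the 4 tissues, core in red and penumbra in blue, Cy3 as triangles and Cy5 as circles; each panel has its own axis, which does not start at 0. Ccl4 stands lowest in healthy core (6.94 and 6.90) and at 10.54 and 10.48 in ischemic core, while Hspb1 is highest in ischemic core.

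Chemokines, the secreted proteins that attract leukocytes, stood at nearly the same level in the 2 ischemic pieces. None of 19 was called, beside 1.36% of all features, and the median was 0.23. Of the 19, 15 were above 0 in both dyes, beside 10300 of all 24881 features. In healthy tissue the median was -0.37 and 5 of 19 were called lower in core, beside 204 of all 24881 features. Ccl4, which attracts monocytes and T cells, had 10.54 and 10.48 in ischemic core and 10.32 and 10.08 in ischemic penumbra (0.31 ± 0.13). Its healthy levels were 6.94 and 6.90 in core and 8.76 and 8.67 in penumbra. Ccl2, which attracts monocytes, had 10.33 and 10.15 in ischemic core and 10.01 and 9.92 in ischemic penumbra, against 8.51 and 8.63 in healthy core and 9.87 and 10.08 in healthy penumbra. For Ccl2 the ischemic and healthy penumbra channels thus overlapped. Cxcl1, which attracts neutrophils, had 8.91 and 8.95 in ischemic core and 8.43 and 8.57 in ischemic penumbra, the latter below healthy penumbra at 8.63 and 8.89.

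Neutrophil and monocyte genes lay within 1 log2 of 0, as did 98.6% of all features. Of 10 neutrophil genes 0 were called, beside 1.36% of all features, so a list of this size would rarely hold a call. Of these genes 9 were above 0 in both dyes (median 0.24), beside 10300 of all 24881 features. S100a8 and S100a9, which form calprotectin, were at 0.24 ± 0.07 and 0.24 ± 0.22. Of 10 monocyte and macrophage genes 0 were called (median 0.30), and Cd14, the co-receptor for lipopolysaccharide, came closest at 0.62 ± 0.15. It had 12.10 and 12.24 in ischemic core and 11.59 and 11.52 in ischemic penumbra, against -0.50 ± 0.14 between the healthy pieces. Among cytokines other than Il12a, Il6 was at 0.45 ± 0.17, Il1b at 0.32 ± 0.08 and Tnf at 0.18 ± 0.01. Cd4 was lower in core (-1.11 ± 0.02, healthy -1.56), while the T cell receptor genes Cd3e and Cd3d were at -0.21 and 0.23. The other Cd4 probe differed by -0.48, and the mean over its probes was not called.

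Receptor genes of neurotransmission were set beside the 1.36% of all features called. Of 24 monoamine, acetylcholine and adenosine receptor genes, Drd1, Drd2 and Htr2c were lower and 0 higher. None of 18 glutamate receptor genes (median 0.01) and none of 14 GABA receptor genes (median 0.13) was called, which is near that share. Of 18 neuropeptide genes, Nts and Tac1 were lower. The 12 reference genes had a median of 0.02 and 0 calls.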

How the data were processed

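Spot intensity in both dyes of 4 two-colour arrays was read from the deposited scanner files; their headers name Agilent's Feature Extraction, version 11.0.1.1. In limma 3.58.1, under R 4.3.3, local background was taken off the median signals by normexp (offset 50), followed by loess within arrays and Aquantile between them. Control spots, and spots marked as outliers, were left out. The typical spot had a signal of 192 to 225.5 (Cy3) or 284 to 310 (Cy5), over a local background of 64 to 66 or 70 to 71. The number of arrays limits the precision. All arrays shared 1 slide, so no slide batch could be tested.

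A probe entered if it was well above background in both ischemic channels of at least 1 region, and the brightest probe stood for a gene. Of 41174 probes, 23374 were named through RefSeq accessions of assembly GRCm38.p6; others kept their accession. Lower bounds set the bright group's mean against, per channel, the higher of the dim probe's signal and the lowest signal well above background. Python 3.11.15, pandas 2.3.3, numpy 2.4.6 and matplotlib 3.10.9 served for tables and plots. The scripts were tested on simulated data. Alternatives in signal, offset, normalization, filter, probe summary and arrays used were run, with limma over the same-dye differences as another.

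The members and the 46 gene lists (769 entries, 720 on the array) were chosen with earlier results of these data known, so a list's count is not independent evidence. The text names the 12 highest and 12 lowest called genes measured in both regions, up to 6 in each direction by lower bound, up to 4 called members of a list (or its brightest, up to 2), the 8 and 8 called genes that differed most from healthy tissue, and the 6 whose same-dye differences lay furthest apart. Any other gene named was chosen after its values were seen.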

Additional observations from a re-analysis of the deposited data

Results flagged for a closer look

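Only list members and genes taken by the naming rules were searched, not all 24881 features. The lists hold many chemokine and myeloid genes, so the make-up of the 10 depends on that choice. Of the genes searched, the 10 below lay on opposite sides of 0 in ischemic and in healthy tissue, in both dyes of each. The ischemic and healthy differences were at least 1 log2 apart, and that distance was not tested. The values below are the ischemic core minus penumbra difference less the healthy one. For 6 chemokines this was 2.10 for Ccl4, 1.93 for Cxcl1, 1.69 for Ccl2, 1.42 for Ccl3, 1.05 for Ccl7 and 1.00 for Cxcl2. For the myeloid genes Gpr84, a receptor for medium-chain fatty acids, and Cd14 it was 1.67 and 1.12, and for Hspb1 it was 1.16. In these 9 the healthy core was lower than the healthy penumbra and the ischemic core higher than the ischemic penumbra. Of the 9, Hspb1 alone was called in the ischemic pieces, and Cxcl2 was dim, between 5.95 and 7.05 in all channels. Avp, the vasopressin gene, ran the other way at -1.29, with -0.88 ± 0.07 in ischemic and 0.40 ± 0.02 in healthy tissue, and Oxt, the oxytocin gene, was at 0.13 ± 0.08 and 0.24 ± 0.11.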

How the results depend on the processing

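No call changed sign under any of the 12 alternatives, but the number of calls changed. For some of them this was set in advance. A call needs the same direction in each dye, so the array leave-outs, which leave 1 dye, could not turn a sign. Leaving out either array of a dye also gives the same result. The filter alternatives reused the normalized values of the main setting. The processed signals of Agilent's software gave 1039 calls (415 higher, 624 lower; 844 in healthy tissue) and kept 334 of the 338. An offset of 0 gave 633 (219 higher, 414 lower; 521 in healthy tissue) and kept all 338. With spike-in scaling there were 181 higher and 189 lower, and 292 were kept; it ended the calls of Crym, Evi2a, Prelp, Rarres2, Rps6ka5, Spock3, Tshz2, Wfdc15a and Zic1. Median centring kept 313, and the mean over probes 306, without Cd4 and Prelp. Leaving out an array leaves 1 dye. Over these leave-outs the calls ran from 413 to 543, the higher ones from 98 to 135, the lower ones from 315 to 408 and the healthy ones from 378 to 460. Without core replicate 1 or penumbra replicate 3 (Cy3 alone) there were 543 calls, 408 of them lower, and 460 in healthy tissue. Without core replicate 2 or penumbra replicate 4 the calls of Evi2a, Hspb1, Nr4a2, Prelp, Rps6ka5, Spatc1 and Spock3 ended. The cause of these changes was not tested. limma over the same-dye differences, whose p-values measure only the spread between arrays, gave 4128 features at an adjusted p below 0.05, and 110 higher and 228 lower when 1 log2 was also required. No paired analysis was possible because the core and penumbra groups share no replicate numbers in the labels; all differences were taken within a dye. Differences in genes near background are understated by the offset.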
